A study of Mus musculus with 7 samples.

Results

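Bone morphogenetic proteins (BMPs) and growth and differentiation factors (GDFs) were followed in whole mouse shoulder joints after repair of the rotator cuff, through 10 genes: the ligands Bmp2, Bmp3, Bmp4, Bmp6, Bmp7 and Gdf5, the secreted antagonists Nog, Grem1 and Chrdl1, and the type I receptor Bmpr1a. The 10 genes were chosen by name for their place in the pathway, out of 56854 gene identifiers found in all files, and every one of them passed the filter on low counts, Gdf5 with counts from 0 to 37. The 7 libraries compared were each from the joint of 1 mouse whose left supraspinatus tendon had been repaired 2 weeks earlier. The supraspinatus is the most often torn muscle of the rotator cuff. Of the 7 mice, 3 were wild type (WT) and 4 were Tnc-/-, lacking Tenascin C, a matrix glycoprotein made in healing tendon. All 7 mice carried the repair, so no unoperated joint enters any comparison. The strain, age, sex and kind of Tnc allele are not given in the sources used here.

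BMP ligands are secreted dimers that bind a complex of type I and type II serine/threonine kinase receptors, which phosphorylates Smad1, Smad5 and Smad9. These join Smad4 and switch on targets such as the Id genes. Noggin, gremlin and the chordin family bind the ligands outside the cell and keep them from the receptors. In joints the pathway drives cartilage and bone formation, and at the insertion of tendon into bone it acts on the progenitors that make the mineralising attachment.

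The libraries held between 13462535 and 28189752 gene counts. Levels are given in CPM, the usual depth-scaled read count, with library sizes after TMM scaling, which assumes most genes do not change. The files of the 2 genotypes differ in layout and in the set of gene identifiers, so any difference in how reads were counted and the genotype cannot be told apart. Wild-type libraries 2 and 3 stood apart from library 1: 2026 olfactory, vomeronasal and trace amine receptor genes, which a joint should not express, summed to 89.1, 1399 and 982 CPM in WT 1 to 3 and to between 36.5 and 43.9 CPM in Tnc-/-. Among tested genes spanning 100 to 300 kb, the median gene lay 1.04 log2 units higher in WT 2 and 0.78 higher in WT 3 than in WT 1, whereas among those up to 10 kb it lay lower, at -0.29 and -0.35. Fits without WT 2 and WT 3 are therefore given beside each member. In whole joints, fewer cells of a type and less RNA per cell cannot be told apart. Tnc itself was at 437, 292 and 327 CPM in WT 1 to 3 and between 33.4 and 54.97 CPM in Tnc-/-, 11.9% of the wild-type mean, in keeping with the labels.

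Among the members, Bmp4, Bmp6 and Bmpr1a were lower in Tnc-/- and none was higher (edgeR quasi-likelihood test with Benjamini-Hochberg adjustment over 17791 genes, adjusted p under 0.05). That is 3 of 10, where 29.0% of all tested genes were called, 18.7% as lower and 10.3% as higher, so the share of members called was near the background. With library totals in place of TMM, lower calls made up 82.7% of all calls in place of 64.5%. The genotypes did not overlap for 4 members, with Bmp3, Bmp4 and Bmpr1a lower and Nog higher in every Tnc-/- library, as against 35.1% of all tested genes in either direction. The median log2 fold change of the members was -0.16, against -9.0e-04 over all tested genes. Without WT 2 and WT 3 no member was called, where 4.45% of all tested genes were, and none had an unadjusted p under 0.05, where 4563 of 18530 genes did; in that fit the remaining wild-type library is assumed to vary like the Tnc-/- libraries. Without WT 1 the same 3 members were called, where 64.2% of all tested genes were. DESeq2 called the same 3 members in a fit to all libraries (35.1% of all tested genes), and limma voom called 0, with 3 at an unadjusted p under 0.05, where 1004 and 5753 of all 17791 tested genes were.

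**Figure D1:**
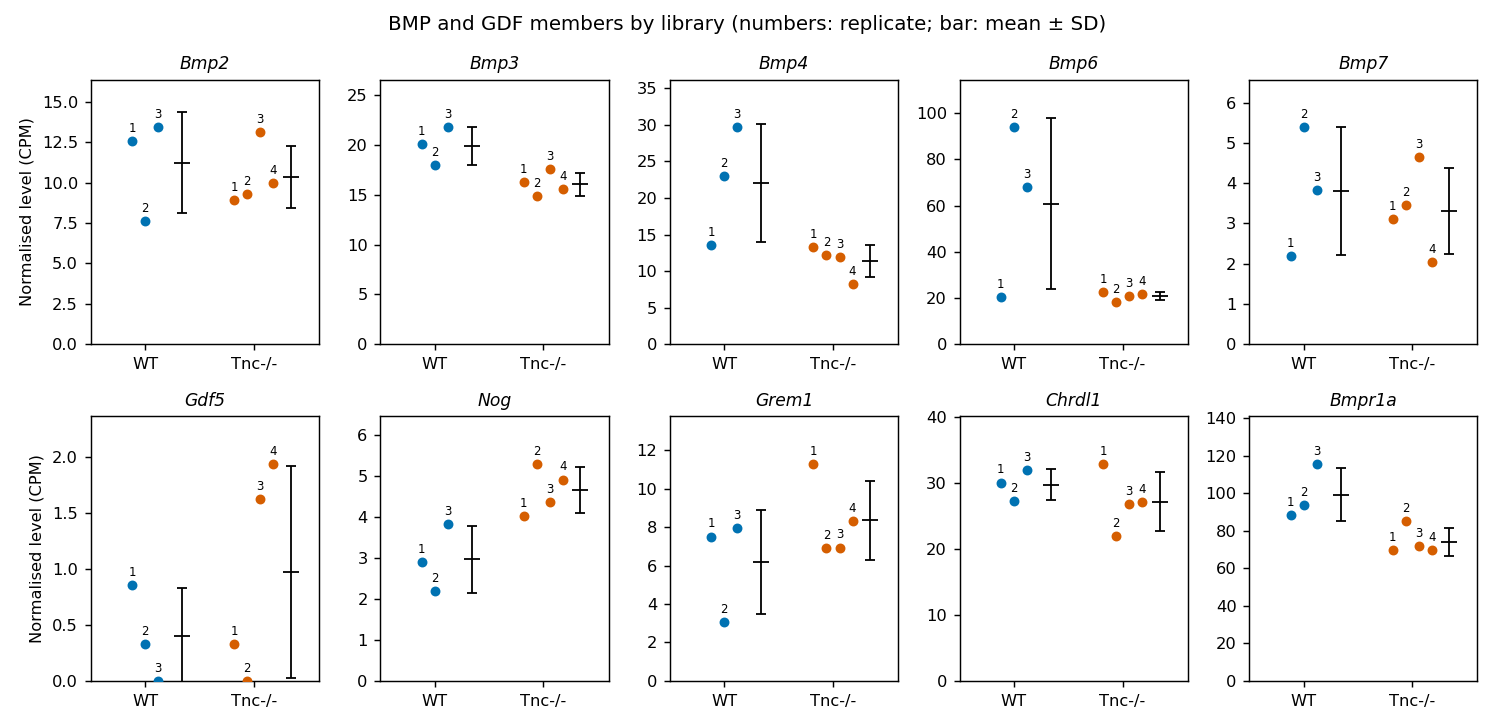
Level of each member in CPM (y axis, from 0, a scale of its own per panel) in the 3 wild-type (blue) and 4 Tnc-/- (orange) libraries, numbered by replicate; black marks give the mean and bars the SD, drawn only above 0 for Gdf5. Bmp3, Bmp4, Bmpr1a and Nog separate the genotypes, while Bmp6 is high in WT 2 and 3 alone.

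The 3 called members are shown by the 250 bases before their transcription start in RefSeq (build GRCm38.p6, whereas the submitters' processing notes name GRCm39), since these were the members called. A promoter was found in the table for 4 of the 10 members (these 3 and Grem1). The Bmp4 stretch is chr14:46390670-46390919 on the minus strand, that of Bmp6 is chr13:38345466-38345715 on the plus strand and that of Bmpr1a is chr14:34502547-34502796 on the minus strand. Capitals mark GC boxes (GGGCGG) and the palindrome GGCGCC, a GC-rich element that BMP-activated Smads can bind, searched on both strands; no marked match overlaps another.
Bmp4: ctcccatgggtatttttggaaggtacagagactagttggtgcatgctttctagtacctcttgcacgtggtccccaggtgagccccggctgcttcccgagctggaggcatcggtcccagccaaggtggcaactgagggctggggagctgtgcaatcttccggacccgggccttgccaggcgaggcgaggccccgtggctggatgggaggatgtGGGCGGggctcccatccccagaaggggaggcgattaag
Bmp6: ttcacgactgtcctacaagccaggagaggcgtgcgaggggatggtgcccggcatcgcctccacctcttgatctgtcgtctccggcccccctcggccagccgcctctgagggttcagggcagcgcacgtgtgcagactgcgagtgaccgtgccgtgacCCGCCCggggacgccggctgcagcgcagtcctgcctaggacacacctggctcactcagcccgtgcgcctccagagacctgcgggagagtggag
Bmpr1a: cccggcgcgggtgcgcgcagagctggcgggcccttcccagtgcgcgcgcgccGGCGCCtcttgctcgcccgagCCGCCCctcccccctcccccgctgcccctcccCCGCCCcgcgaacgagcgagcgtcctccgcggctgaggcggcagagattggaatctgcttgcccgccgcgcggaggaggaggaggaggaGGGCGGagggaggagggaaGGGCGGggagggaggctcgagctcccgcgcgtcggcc
Bmp4 and Bmp6 each held 1 GC box and Bmpr1a held 4; 32.7% of 32851 promoters of the same length held at least 1. The palindrome was found in Bmpr1a alone of these 3, and in 9.59% of all promoters. A CCAAT box was found in Bmpr1a (33.8% of promoters) and no TATAAA in any of the 3 (12.4% of promoters). The G and C content was 63.2% for Bmp4, 68.8% for Bmp6 and 78.8% for Bmpr1a, against a median of 52.4% over all promoters. A match is a stretch of letters and says nothing of binding in these joints.

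Bmp4 (ENSMUSG00000021835), a ligand of mesenchymal progenitors in cartilage and bone formation, fell to 51.8% of its wild-type mean in Tnc-/-. It was at 13.6, 23.0 and 29.6 CPM in WT 1 to 3 (mean 22.1 ± 8.07, SD, n = 3). In Tnc-/- 1 to 4 it was at 13.3, 12.2, 11.98 and 8.26 CPM (mean 11.4 ± 2.19, SD, n = 4). Even the highest Tnc-/- library was below the lowest wild-type one, as in 17.4% of tested genes, but WT 1 lay close to the highest of them. The log2 fold change was -0.95 (SE 0.29; edgeR, adjusted p = 0.0401). It was -0.25 (SE 0.27; edgeR, adjusted p = 0.604) without WT 2 and WT 3, and the call was lost without any 1 library other than WT 1 (adjusted p up to 0.176, values from -1.05 to -0.67). At 7.15 kb Bmp4 is a short gene, and its level in WT 2 and 3 averaged 1.94 times that in WT 1. The median gene up to 10 kb lay lower there, and the source of the higher level of Bmp4 was not tested. Its exons overlap the opposite-strand gene Gm15217 by 89 bases.

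Bmp6 (ENSMUSG00000039004), a ligand best known for control of iron through hepcidin and also made in cartilage and bone, had the largest fold change of the called members. Its levels were 20.6, 93.8 and 68.2 CPM in WT 1 to 3 and 22.5, 18.3, 20.7 and 21.7 CPM in Tnc-/- 1 to 4. The genotypes overlapped: WT 1 lay within the range of Tnc-/-, and the difference came from WT 2 and WT 3, which averaged 3.93 times WT 1. The log2 fold change was -1.55 (SE 0.41; edgeR, adjusted p = 0.0239), and 0.0082 (SE 0.20; edgeR, adjusted p = 0.984) without WT 2 and WT 3. The call was also lost without any 1 library other than WT 1, with adjusted p up to 0.0898, at -1.09 without WT 2, -1.45 without WT 3 and -1.60 to -1.50 without a Tnc-/- library. Bmp6 spans 155 kb, the longest of the members, and 44.7% of tested genes of 100 to 300 kb were called lower in Tnc-/-. The 2026 olfactory, vomeronasal and trace amine receptor genes held 0.0939 and 0.0659 CPM per kb of span in WT 2 and WT 3 and 0.00594 in WT 1; the part of such reads in the Bmp6 counts was not tested. Its exons also overlap Txndc5, a gene with up to 5159 counts on the other strand, by 224 bases.

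The other ligands did not pass the test. Bmp2, which starts bone repair in fractures, was at 12.6, 7.64 and 13.4 CPM in WT 1 to 3 and at 8.91, 9.30, 13.2 and 9.99 CPM in Tnc-/- 1 to 4, a difference of -0.12 on the log2 scale (SE 0.29; edgeR, adjusted p = 0.785). Its groups overlapped, and without WT 2 and WT 3 the value was -0.29 (SE 0.27). Bmp3, a ligand that opposes the bone-forming BMPs, was at 20.1, 17.9 and 21.7 CPM in WT 1 to 3 and at 16.2, 14.9, 17.6 and 15.5 CPM in Tnc-/-. Every Tnc-/- library of Bmp3 lay below every wild-type library, by a small margin, and the log2 fold change of -0.31 (SE 0.17) had an adjusted p of 0.194 in edgeR. It was much the same, at -0.33 (SE 0.20), without WT 2 and WT 3, and with scaling by library totals alone it passed the test at -0.56 (edgeR, adjusted p = 0.0393), where the median of all genes was -0.24. Fitted among genes up to 30 kb alone it also passed, at -0.53 (edgeR, adjusted p = 0.0438).

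Bmp7 and Gdf5 had the lowest levels of the members per kb of exon in Tnc-/-. Bmp7, a bone-inducing ligand, was at 2.2005, 5.38 and 3.83 CPM in WT 1 to 3 and at 3.11, 3.45, 4.65 and 2.04 CPM in Tnc-/- 1 to 4, from 39 to 84 counts a library. The log2 fold change was -0.20 (SE 0.49; edgeR, adjusted p = 0.789), and it changed sign to 0.58 (SE 0.48) without WT 2 and WT 3. Gdf5, the ligand that marks the forming joint and acts in tendon and cartilage, had 16, 5 and 0 counts in WT 1 to 3 and 9, 0, 29 and 37 counts in Tnc-/- 1 to 4. The 0 in WT 3 allows up to 0.182 CPM and that in Tnc-/- 2 up to 0.167 CPM (3 counts, counting error only), while the highest level was 1.94 CPM in Tnc-/- 4. Libraries of both genotypes held low and high values, and the log2 fold change of 1.26 had an SE of 1.41 (edgeR, adjusted p = 0.534). It was 0.16 (SE 1.33) without WT 2 and WT 3, and ranged from 0.69 without WT 3 to 2.62 without WT 1 when 1 library was left out. In GENCODE M21 the gene Gm15557 on the other strand covers 936 bases of the 2.32 kb of Gdf5 exons and was listed at 0 in every library. Whether counting used the strand is not given in the sources used here, so reads from this stretch may be missing from the Gdf5 counts.

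Of the antagonists, none passed the test. Noggin (Nog), which binds BMPs and covers the faces that touch the receptors, was at 2.90, 2.19 and 3.83 CPM in WT 1 to 3. In Tnc-/- 1 to 4 it was at 4.03, 5.29, 4.37 and 4.92 CPM, all above the wild-type libraries, as in 17.7% of tested genes. Its counts ran from 33 to 109, and the log2 fold change of 0.64 (SE 0.41) had an adjusted p of 0.264 in edgeR. The value was 0.67 (SE 0.36) without WT 2 and WT 3 and kept its sign in all 18 alternatives, from 0.40 to 0.87, but without TMM scaling the genotypes overlapped, with 4.34 CPM in WT 3 and 3.87 CPM in Tnc-/- 1.

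Grem1, an antagonist of Bmp2, Bmp4 and Bmp7, was at 7.51, 3.06 and 7.96 CPM in WT 1 to 3 and at 11.3, 6.91, 6.94 and 8.32 CPM in Tnc-/- 1 to 4. Only Tnc-/- 1 and 4 lay above all wild-type libraries, and the log2 fold change was 0.44 (SE 0.41; edgeR, adjusted p = 0.459). It was 0.12 (SE 0.32) without WT 2 and 0.24 (SE 0.47) without Tnc-/- 1, 0.69 (SE 0.40) without WT 1, 0.66 (SE 0.48) without WT 3 and 0.16 (SE 0.33) without WT 2 and WT 3. Chrdl1, a relative of chordin, varied little between libraries, at 30.1, 27.2 and 31.9 CPM in WT 1 to 3 and 32.8, 22.01, 26.8 and 27.1 CPM in Tnc-/- 1 to 4. Its log2 fold change was -0.13 (SE 0.17; edgeR, adjusted p = 0.595), and -0.15 (SE 0.21) without WT 2 and WT 3. At 109 kb Chrdl1 is in the same class of span as Bmp6, and its mean in WT 2 and 3 was 0.984 times its level in WT 1.

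Bmpr1a (ENSMUSG00000021796), the type I receptor also called ALK3, had the highest level of the members per kb of exon in every library but WT 2, where Bmp6 was higher, and fell to 74.7% of the wild-type mean in Tnc-/-. It was at 88.5, 93.6 and 115 CPM in WT 1 to 3 (mean 99.2 ± 14.3, SD, n = 3) and at 69.7, 85.0, 71.99 and 69.7 CPM in Tnc-/- 1 to 4 (mean 74.1 ± 7.36, SD, n = 4). No Tnc-/- library reached the lowest wild-type one, which was WT 1. The log2 fold change was -0.42 (SE 0.14), at the edge of the threshold (edgeR, adjusted p = 0.0498). Without WT 2 and WT 3 it was -0.26 (SE 0.16; edgeR, adjusted p = 0.348), and the call was lost without any 1 library other than WT 1, with adjusted p up to 0.186, at -0.29 without WT 3 and -0.50 to -0.40 without any other. The gene spans 92.6 kb, a class (30 to 100 kb) in which 21.8% of tested genes were called lower. Its exons share 290 bases with the opposite-strand gene Gm17110, which was listed at 0 in every library.

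Per kb of exon in GENCODE M21, levels could be set side by side between genes. In Tnc-/- Bmpr1a stood first with 11.7 CPM per kb (10.97 to 13.4 over the 4 libraries), clear of all other members. Bmp6 (4.69 to 5.76), Bmp4 (3.68 to 5.91) and Chrdl1 (3.26 to 4.86) followed, each overlapping the next in order. Bmp2 (2.51 to 3.70), Nog (2.38 to 3.12), Bmp3 (2.01 to 2.38) and Grem1 (1.67 to 2.72) came next, and neighbours among them also overlapped, except that Bmp3 lay just below Nog. Bmp7 (0.508 to 1.16) lay below all of these, and Gdf5 (0 to 0.834) overlapped it. WT 1 gave 13.9 CPM per kb for Bmpr1a, 6.04 for Bmp4 and 5.28 for Bmp6, whereas Bmp6 was at 24.1 and 17.5 CPM per kb in WT 2 and WT 3.

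**Figure D2:**
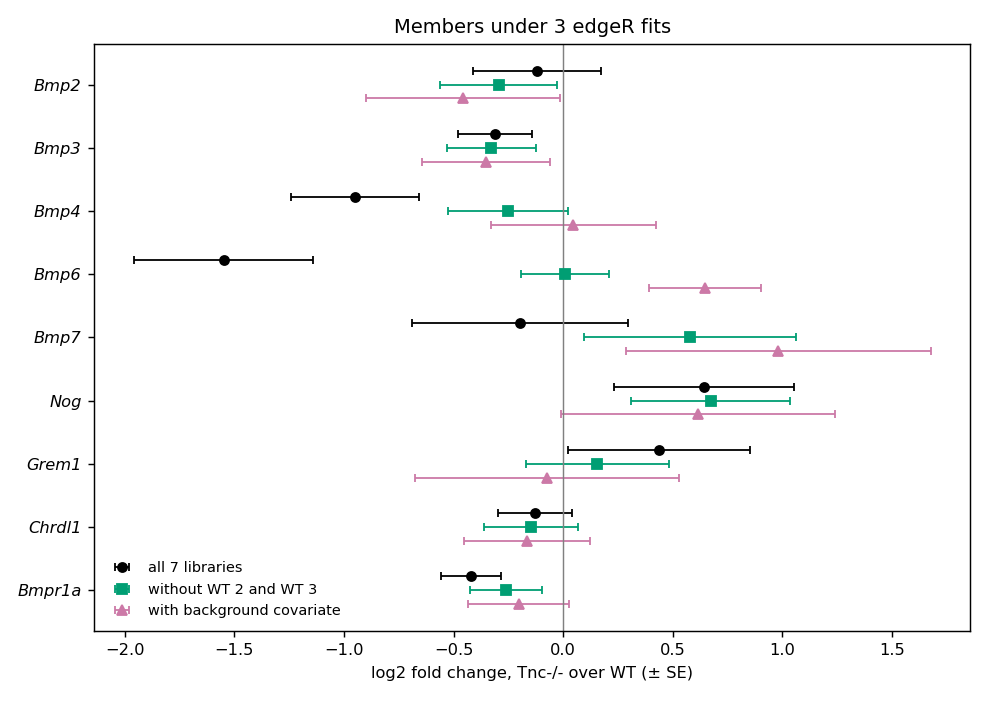
log2 fold change of 9 members (x axis, Tnc-/- over wild type, bars ± SE) in the edgeR fit to all libraries (black), without WT 2 and 3 (green) and with the summed level of smell and pheromone receptor genes as a covariate (pink); Gdf5, with SE above 1, is left out. Bmp6 moves from -1.55 to 0.0082 and 0.65, while Bmp2, Bmp3, Nog, Chrdl1 and Bmpr1a keep their side of 0 in all 3 fits.

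The summed receptor level, used as a covariate, was highest in WT 2 and 3. WT 1 (89.8 CPM before TMM scaling) also lay above every Tnc-/- library (33.3 to 41.5 CPM). Covariate and genotype were thus partly confounded, and calls lost or signs changed in this fit cannot be assigned to either. With the covariate no member was called (edgeR, 1 at an unadjusted p under 0.05), where 2.23% of all tested genes were. Bmp6 then stood at 0.65 on the log2 scale (SE 0.26; edgeR, adjusted p = 0.201), Bmp4 at 0.047 (SE 0.38; 0.964), and Bmpr1a at -0.20 (SE 0.23; 0.691). Of the members over 30 kb, the mean of WT 2 and 3 was 3.93 times WT 1 for Bmp6, 2.09 times for Bmp7, 1.18 times for Bmpr1a and 0.984 times for Chrdl1. Of those up to 30 kb it was 1.94 times for Bmp4 and between 0.193 (Gdf5) and 1.04 times (Nog) for the other 5.

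**Figure D3:**
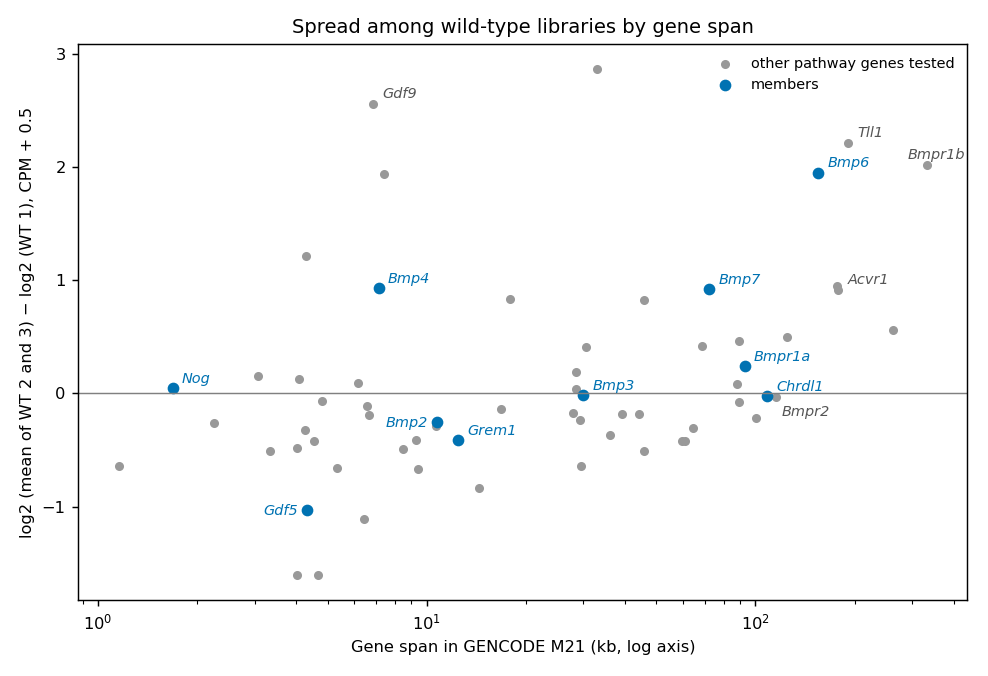
Gene span in GENCODE M21 (x axis, kb, log axis) against the log2 level of WT 2 and 3 relative to WT 1 (y axis, CPM + 0.5) for the members (blue) and the other tested pathway genes (grey). Bmp6 lies far above 0, with a mean in WT 2 and 3 of 3.93 times WT 1, as do Tll1 and Bmpr1b and also the shorter Acvr2b (9.54 times, 32.9 kb), Gdf9 (8.30 times, 6.88 kb) and Dand5 (4.18 times, 7.42 kb), whereas Chrdl1 and Bmpr2, of over 100 kb, lie at 0.

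The other genes of the pathway numbered 58, of which 53 passed the filter on low counts. Of these, 9 were called, 7 lower and 2 higher in Tnc-/-, or 17.0% against 29.0% of all tested genes, with a median log2 fold change of -0.11. Both higher calls, Gdf15 and Id1, were lost with library totals (0 higher and 11 lower, against 951 and 4541 of all tested genes). They were also lost with limma voom (0 higher and 4 lower, against 728 and 276). Without WT 1, 14 pathway genes were higher and 11 lower, against 5335 and 8778 of all tested genes. Those not tested were Bmp8b, Bmp10, Gdf1, Gdf2 and Cer1. Gdf1 shares its exons with Cers1 and was listed at 0 in every library.

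Receptors and co-receptors made up 4 of the 7 lower genes; 11 were tested, with a median log2 fold change of -0.15. Over all tested genes 18.7% were called lower, with 21.8% of those of 30 to 100 kb (the class of Acvr2a), 44.7% of those of 100 to 300 kb (Bmpr2 and Acvr1) and 78.5% of those over 300 kb (Bmpr1b). Bmpr2, the type II receptor that pairs with Bmpr1a, fell to 65.5% of the wild-type mean. It was at 115, 113 and 113 CPM in WT 1 to 3 and at 78.8, 80.5, 71.99 and 67.4 CPM in Tnc-/- 1 to 4, so that WT 1 lay with the other wild-type libraries and the genotypes stood well apart. Its log2 fold change was -0.61 (SE 0.11; edgeR, adjusted p = 0.00824), and -0.63 (SE 0.16; edgeR, adjusted p = 0.0436) without WT 2 and WT 3. It held in 15 of 17 alternatives, DESeq2 with Bonferroni adjustment included (adjusted p = 5.7e-04), and was lost with the receptor covariate at an almost equal size, -0.62 (SE 0.20; edgeR, adjusted p = 0.115). Bmpr2 spans 116 kb.

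Acvr2a, another type II receptor, was at 33.4, 47.5 and 44.6 CPM in WT 1 to 3 and at 16.0, 25.96, 18.4 and 19.2 CPM in Tnc-/- 1 to 4, with a fold change of -1.07 on the log2 scale (SE 0.21; edgeR, adjusted p = 0.00877). Acvr1 (ALK2), a type I receptor, was at 55.7, 111 and 99.6 CPM in WT 1 to 3 and between 32.3 and 46.4 CPM in Tnc-/-, or -1.17 on the log2 scale (SE 0.24; edgeR, adjusted p = 0.01). For both, WT 1 also lay above all Tnc-/- libraries and the call held when any 1 library was left out. With the receptor covariate Acvr2a moved to -0.60 (SE 0.30; edgeR, adjusted p = 0.312) and Acvr1 to -0.22 (SE 0.26; 0.703). Without WT 2 and WT 3 the log2 fold change of Acvr2a was -0.76 (edgeR, adjusted p = 0.0839) and that of Acvr1 was -0.50 (0.145). Bmpr1b (ALK6), a type I receptor of cartilage that spans 332 kb, was at 9.55, 47.2 and 33.4 CPM in WT 1 to 3 and between 7.10 and 9.78 CPM in Tnc-/-. Its called difference of -1.93 on the log2 scale (SE 0.45; edgeR, adjusted p = 0.0151) was -0.28 (SE 0.28; 0.571) without WT 2 and WT 3, and the call was lost without WT 2, WT 3 or Tnc-/- 3 (adjusted p up to 0.0631). The exons of Acvr2a overlap Orc4 on the other strand by 446 bases. Acvr2b, a type II receptor named after its values were seen, was at 1.40, 10.7 and 15.9 CPM in WT 1 to 3 and between 3.48 and 7.19 CPM in Tnc-/- (log2 fold change -0.73, SE 0.67; edgeR, adjusted p = 0.445). Without WT 2 and WT 3 it was the 1 pathway gene called higher. Of the co-receptors, Hjv, a muscle and liver protein that binds BMPs, had the most CPM, with 147 to 224 CPM in wild type and 189.6 to 321 CPM in Tnc-/- (log2 fold change 0.47, SE 0.21; edgeR, adjusted p = 0.13), and passed the test without WT 1 (0.74; 0.00434).

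Of the other ligands, Bmp5, Gdf9 and Gdf15 were called. Bmp5, a ligand of skeletal and cartilage growth, was at 9.77, 13.4 and 14.6 CPM in WT 1 to 3 and between 5.25 and 6.43 CPM in Tnc-/-, or -1.12 on the log2 scale (SE 0.28; edgeR, adjusted p = 0.0198). All wild-type libraries lay above, WT 1 included, and the value was -0.76 (SE 0.27; edgeR, adjusted p = 0.12) without WT 2 and WT 3; 1878 bases of its exons overlap Gm26903 on the other strand. The call of Bmp5 was lost without WT 3 or without Tnc-/- 1, 2 or 3 (adjusted p up to 0.0787). Gdf9, an oocyte factor, was at 1.02, 12.6 and 4.37 CPM in WT 1 to 3 and between 0.703 and 0.942 CPM in Tnc-/- (log2 fold change -2.86, SE 0.76; edgeR, adjusted p = 0.0238), and at -0.33 (SE 0.68) without WT 2 and WT 3. Its call held without WT 1 and was lost without any other 1 library (adjusted p up to 0.122), with -1.71 without WT 2. Gdf15, a stress-induced ligand that signals through a brain receptor rather than BMP receptors, rose from 2.15, 2.59 and 2.31 CPM in WT 1 to 3 to 5.33, 5.13, 6.998 and 5.54 CPM in Tnc-/- 1 to 4. Its log2 fold change was 1.29 (SE 0.39; edgeR, adjusted p = 0.0369), and 1.41 (SE 0.38; 0.055) without WT 2 and WT 3. The call of Gdf15 held without WT 1 and was lost without any other 1 library, with adjusted p up to 0.117 and values from 1.18 to 1.37. Mstn, myostatin, the muscle growth inhibitor, had the most CPM of this list, at 126, 33.4 and 83.3 CPM in WT 1 to 3 and 49.6 to 76.5 CPM in Tnc-/- (log2 fold change -0.39, SE 0.37; edgeR, adjusted p = 0.464), and passed the test without WT 2 and WT 3 (-1.03; 0.0203).

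**Figure D4:**
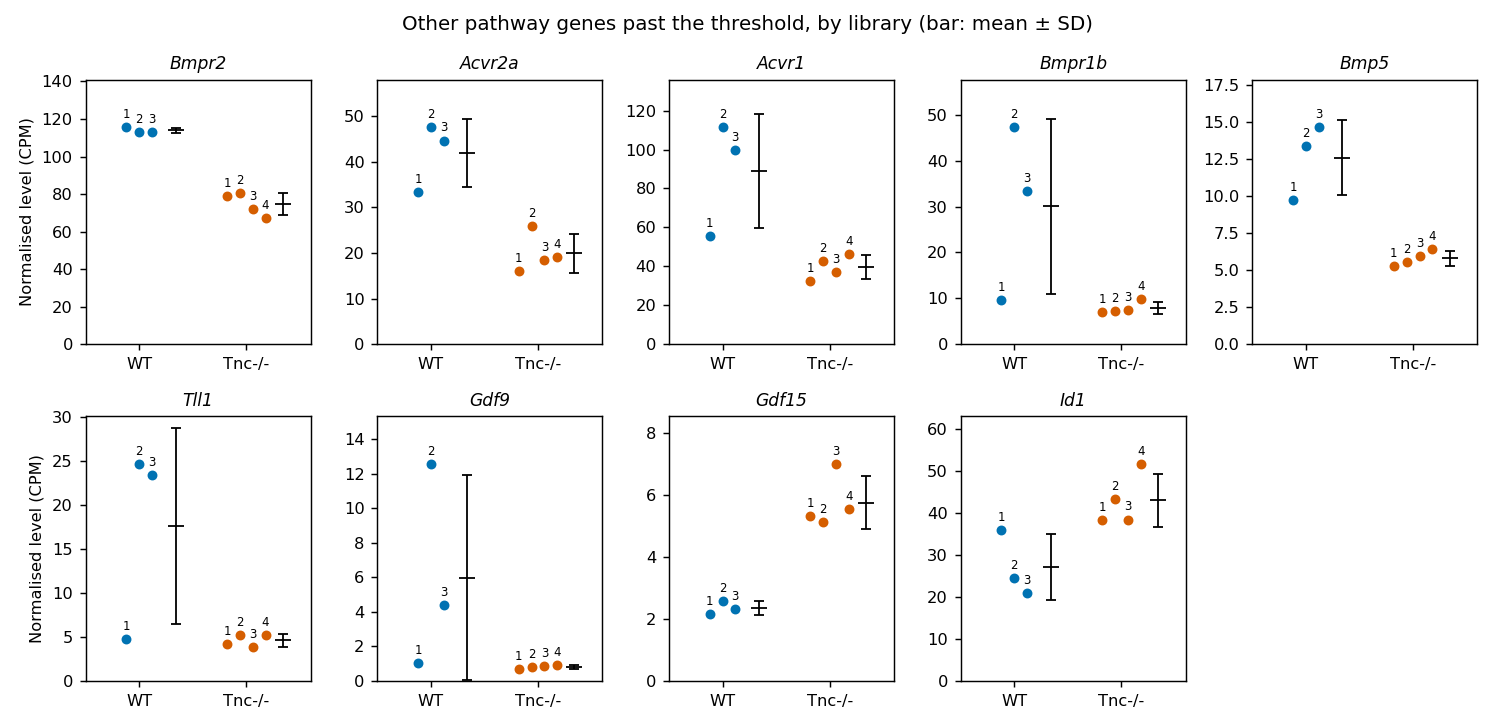
Level in CPM (y axis, from 0, a scale of its own per panel) of the 9 other pathway genes past the threshold in wild-type (blue) and Tnc-/- (orange) libraries, numbered by replicate; black marks give the mean and bars the SD. Bmpr2, Acvr2a, Acvr1, Bmp5 and Gdf9 are lower and Gdf15 and Id1 higher in Tnc-/- against every wild-type library. For Gdf9 and Id1, WT 1 lies near the Tnc-/- libraries. Bmpr1b and Tll1 are high in WT 2 and 3 alone.

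The lists further along the pathway are read against the 29.0% of all tested genes called and the 7533 of 17791 with an unadjusted p under 0.05. Among 15 tested modulators outside the cell the 1 called was Tll1, a protease that cleaves chordin, at 4.78, 24.7 and 23.4 CPM in WT 1 to 3 and between 3.81 and 5.24 CPM in Tnc-/- (log2 fold change -1.93, SE 0.50; edgeR, adjusted p = 0.0229); it was -0.057 (SE 0.34) without WT 2 and WT 3, and the call was lost without any 1 library other than WT 1 (adjusted p up to 0.0999). Twsg1 and Bmper were also called with DESeq2. Fstl1, with the most CPM of them, was at 780 to 1125 CPM in wild type and 718 to 1131 CPM in Tnc-/- (-0.12, SE 0.22; edgeR, adjusted p = 0.705). None of the 8 Smads and their regulators passed, at an unadjusted p under 0.05 either, although Smad4 was called with library totals and Smad9 and Smurf1 without WT 1; Smad5 was at 52.96 to 79.8 CPM in wild type and 66.2 to 75.2 CPM in Tnc-/- (log2 fold change -0.0030, SE 0.16).

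Of 8 target genes 1 was called. Id1, a direct BMP target that blocks differentiation factors, was at 35.96, 24.7 and 21.02 CPM in WT 1 to 3 and rose to 38.5, 43.5, 38.5 and 51.7 CPM in Tnc-/- 1 to 4, or 0.66 on the log2 scale (SE 0.21; edgeR, adjusted p = 0.0448). All 4 libraries lay above all wild-type libraries, but WT 1 lay near the lowest of them, and without WT 2 and WT 3 the value was 0.25 (SE 0.20; edgeR, adjusted p = 0.453). Its call was lost without any 1 library other than WT 1, with adjusted p up to 0.151 and values from 0.51 to 0.71. It was lost too with the receptor covariate at 0.054 (edgeR, adjusted p = 0.939), library totals at 0.43 (0.0971) and DESeq2 size factors at 0.62 (0.0557). Id3, the target with the most CPM, was at 143, 125 and 113 CPM in WT 1 to 3 and between 108 and 163 CPM in Tnc-/- (0.036, SE 0.17; edgeR, adjusted p = 0.894).

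Markers of the cells that make and receive BMPs were measured beside these genes, and their part in the differences was not tested. The summed level of 6 cartilage markers was 587 to 1342 CPM in wild type and 606 to 2047 CPM in Tnc-/-, with none called. For 6 bone-forming cell markers it was 828 to 1213 against 942 to 1247 CPM, with Bglap higher and Phex lower. Synovial lining (1356 to 1497 against 1170.1 to 1641 CPM, 0 of 4 called) and mural cell markers (389 to 565 against 427 to 578 CPM, Notch3 higher) overlapped as well. So did fibroblast (10395 to 17184 against 11797 to 20925 CPM, Pi16 higher of 5), endothelial (475 to 569 against 427 to 528 CPM, Emcn lower of 5), macrophage (350 to 623 against 526 to 652 CPM, 0 of 4 called) and adipocyte markers (98.2 to 155 against 118 to 245 CPM, Adipoq higher of 4). Tendon markers summed to 2676 to 3402 against 2615 to 4455 CPM, with Mkx lower, although Scx, the factor that defines tendon cells, was listed at 0 in every library. Skeletal muscle markers (16648 to 21705 against 23392 to 34089 CPM, Myh4 higher of 4), Schwann cell markers (81.8 to 115 against 124 to 142 CPM, Mbp higher of 4) and erythroid markers (4334 to 8418 against 12282 to 24390 CPM, 3 of 4 tested higher, Alas2 listed at 0 in every library) were higher in every Tnc-/- library. Epidermal markers were near 0 except in WT 2 and WT 3, where Dsp brought the sum to 27.6 and 16.6 CPM.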

How the data were processed

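Counts per gene were deposited by the authors as raw read counts, 1 file per library, per the file contents. Poly(A) RNA was captured and libraries made with a NEBNext Ultra kit, per the labels' protocols. FastQC 0.11.9, HISAT2 2.2.1, HTSeq 2.0.2, DESeq2 1.38.3 and build GRCm39 are named, per the submitters' processing notes; the annotation and strand setting are not given in the sources used here. Rows naming no gene held 30.1 to 32.7% of the reads in the Tnc-/- files, 11.4 to 11.6% of the reads being ambiguous between genes, and were left out; wild-type files list 0 such rows. The 56854 identifiers in all files were used, and 126 unique to the wild-type files and 87 unique to those of Tnc-/- were left out. Symbols came from the Tnc-/- files, and spans, exon lengths and overlaps from GENCODE M21 (GRCm38), which held 91.5% of the identifiers.

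The test was that of edgeR 4.0.16, run in R 4.3.3 (filterByExpr, TMM, robust quasi-likelihood F test, genotype as the 1 term, Benjamini-Hochberg threshold of 0.05). Fold changes are Tnc-/- over wild type, and each SE is the absolute log2 fold change over the root of the F statistic. Alternatives were DESeq2 1.42.0 (also with Bonferroni adjustment, as the series text names), limma 3.58.1 voom, DESeq2 size factors, library totals, no filter, at least 10 counts in every library, genes spanning at most 30 kb, the receptor covariate, leaving out each library, leaving out WT 2 and 3, and the replicate number as a block. Members, lists and tests were chosen with earlier results of these data known. Named were all members, every pathway gene past the threshold and the gene with the highest CPM of each list; other genes were chosen after their values were seen. The mice were separate animals per the series text, and limits for a count of 0 cover counting error only. Of the columns of values, 0 were left unmapped.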

Additional observations from a re-analysis of the deposited data

Results flagged for a closer look

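Among 24 genes tested for a Tnc-/- library far from the other 3, 2 had such a library, and chance alone gives about 1 in 20. The level of Bmpr1a in Tnc-/- 2 was 85.0 CPM, against 69.7 to 71.99 CPM in the others, so that 0.849 of the range lay in the gap, which exceeds what Dixon's test at 95% allows in 4 samples. Bmpr1b in Tnc-/- 4 was at 9.78 CPM, against 7.10 to 7.56 CPM, a gap of 0.83 of the range. Without Tnc-/- 2, the log2 fold change of Bmpr1a was -0.50 (edgeR, adjusted p = 0.053).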

How the results depend on the processing

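The member count of 3 was 3 with DESeq2, DESeq2 size factors, at least 10 counts in every library and without WT 1, 4 with library totals, and 2 with no filter or in genes up to 30 kb (6 members). It was 0 with DESeq2 and Bonferroni adjustment (3 at an unadjusted p under 0.05), limma voom (3), the receptor covariate (1), without WT 2 and 3 (0) and with the replicate block (0), and from 0 to 3 when 1 library was left out. In the same order of those 5 settings, all genes called numbered 1653, 1004, 397, 825 and 1932, and other pathway genes 1, 4, 0 (8 at an unadjusted p in edgeR), 3 and 2. Genes up to 30 kb gave 1995 and 3 from fewer genes tested. Leaving out 1 library gave 2229 (without WT 3) to 14113 (without WT 1) genes and 3 to 25 pathway genes. Lower calls were 64.5% of all calls, 82.7% with library totals and 27.5% with limma voom; library totals moved the median of all genes to -0.24. The cause of these shifts was not tested.

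Among the members and the other genes named by rule, fold changes that changed sign were, with the receptor covariate, those of Bmp4 (0.047), Bmp6 (0.65), Bmp7 (0.98), Gdf5 (-0.68), Grem1 (-0.073), Bmpr1b (0.37), Tll1 (0.65), Gdf9 (0.72) and Id3 (-0.25). Without WT 2 and 3 Bmp6 (0.0082), Bmp7 (0.58) and Id3 (-0.14) did so. With the replicate block Bmp7 (0.047), Gdf5 (-0.25), Smad5 (0.018) and Id3 (-0.090) did so. Smad5 turned to 0.015 with limma voom and 0.074 with no filter. Id3 turned to -0.0085 with DESeq2 (with either adjustment), -0.0084 with DESeq2 size factors, -0.20 with library totals, -0.043 with at least 10 counts and -0.18 in genes up to 30 kb. Leaving out 1 library gave -0.33 to 0.061 for Bmp2, -0.41 to 0.14 for Bmp7, -0.76 to 0.17 for Mstn, -0.28 to 0.13 for Fstl1, -0.16 to 0.15 for Smad5 and -0.092 to 0.22 for Id3. Gdf5 gave no value without Tnc-/- 3 or 4 or with at least 10 counts in every library.

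The replicate numbers in the titles gave no sign of pairing the mice. Deviations from the group means correlated by -0.029, 0.073 and -0.014 across genes in the same-numbered pairs. Not every library correlated best with its own number. All pairs of libraries lay between -0.078 and 0.084, so the check cannot exclude pairing. The replicate block left Acvr1 and Acvr2a called and gave Bmpr2 an adjusted p of 0.0539 in edgeR. Of the members, Gdf5 had the fewest counts, 0 to 37 a library.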

Other observations

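The values here were picked after they were seen and carry no test. Gdf5 was highest in 3 libraries, WT 1, Tnc-/- 3 and Tnc-/- 4, and these held the highest levels of the cartilage genes Col2a1, Col9a1 and Matn3. Col2a1, the main collagen of cartilage, was at 991, 1047 and 1380 CPM in those 3 libraries and between 363 and 524 CPM in the other 4. Col9a1 was at 64.2, 53.7 and 77.2 CPM against 16.1 to 36.6 CPM, and Matn3 at 23.8, 17.2 and 21.5 CPM against 4.46 to 16.1 CPM. These 3 of the 6 cartilage markers were picked for this pattern; Acan also showed it (222, 229.5 and 518 CPM against 139 to 193 CPM), and Sox9 and Snorc did not show it: Sox9 was at 18.3, 19.99 and 24.2 CPM in those libraries and 15.1 to 27.3 CPM in the others, and Snorc at 22.6, 17.0 and 26.9 CPM against 10.4 to 20.9 CPM.

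Ratios of antagonist to ligand counts within a library do not depend on scaling between libraries. Of 15 such ratios, 6 were higher in every Tnc-/- library than in every wild-type library and 0 lower. The 6 are not separate observations, since 4 share Nog and 2 share Grem1; of single tested genes 17.7% were higher without overlap, and the share over other pairs of genes was not computed. Nog to Bmp4 was 0.213, 0.0954 and 0.129 in WT 1 to 3 and 0.304, 0.434, 0.364 and 0.595 in Tnc-/- 1 to 4. Nog to Bmp3 was 0.144, 0.122 and 0.176 in WT 1 to 3 and 0.248, 0.356, 0.248 and 0.316 in Tnc-/- 1 to 4. Grem1 to Bmp4 was 0.553, 0.133 and 0.268 in WT 1 to 3 and between 0.566 and 1.01 in Tnc-/-, so WT 1 lay just below Tnc-/-. The levels of Bmp4 and Bmp6 in WT 2 and 3 averaged 1.94 and 3.93 times those in WT 1, which lowers ratios to them there. No ratio to Bmp7 separated the genotypes, and no ratio of Chrdl1 did.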
